A study of Mus musculus with 6 samples.

Results

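The genes described here are Tbp, Nono, Rpl13a, Hsp90ab1 and Ppia, 5 genes of basic gene expression that cover transcription, the ribosome and protein folding. They were chosen by the names of their probes, not by their values, although earlier results of these data were known. They are 5 of the 15 genes that the array pairs with a RefSeq transcript, among 60915 probes in all. Each gene is represented by 1 probe printed as 20 spots on every array, so the 5 genes hold 100 spots per array. The probes carry the transcripts NM_013684.3 (Tbp), NM_023144.2 (Nono), NM_009438.4 (Rpl13a), NM_008302.3 (Hsp90ab1) and NM_008907.1 (Ppia). All 600 spots of the 5 genes over the 6 arrays were well above background and none was saturated, so all 5 genes entered the test.

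The cells were OCCM-30, an immortalised mouse line that behaves like cementoblasts, the cells that lay down the mineral layer of the tooth root. The 3 PTH cultures received 100 ng/ml parathyroid hormone (PTH) dissolved in 0.1% acetic acid for the first 6 h of each 24 h cycle, then hormone-free medium for 18 h, over 2 cycles. The 3 control cultures received 0.1% acetic acid on the same schedule. RNA of each culture was hybridised to its own 1-colour Agilent array, and the labels call the 3 samples of a group biological replicates. None of the 13 markers of cementoblasts and of other cell types listed for the analysis, and none of 14 further genes of these pathways, was paired with a probe, so the cell type could not be checked here.

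As background, Tbp encodes the TATA-binding protein, which helps to place RNA polymerases at promoters. Nono encodes an RNA- and DNA-binding protein of nuclear paraspeckles that takes part in transcription and splicing. Rpl13a encodes a protein of the large ribosomal subunit. Hsp90ab1 encodes the constitutive cytosolic HSP90 chaperone, which holds kinases and steroid receptors in a foldable state, and Ppia encodes cyclophilin A, a proline isomerase that speeds protein folding and binds cyclosporin. Genes of this kind are commonly used as references against which other transcripts are measured. PTH acts on bone-forming cells through a receptor that raises cyclic AMP, and cyclic AMP acts in the nucleus through factors that bind the cAMP response element.

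The promoters are shown because promoters in general can hold the sequences that TATA-binding protein and the cyclic AMP pathway recognise. RefSeq sequences of build GRCm38.p6 were available here for 4 of the 5 genes: Tbp, Nono, Rpl13a and Ppia. Each stretch gives the 150 bases directly before the transcript's RefSeq start, on the strand of the gene, outside the transcript and its UTR. The Tbp stretch is chr17:15499738-15499887 on the plus strand, that of Nono chrX:101429501-101429650 on the plus strand, that of Rpl13a chr7:45128746-45128895 on the minus strand, and that of Ppia chr11:6415717-6415866 on the plus strand. Capitals mark matches, on either strand, to the TATA box TATAAA, the CCAAT box CCAAT, the GC box GGGCGG and the cAMP response element TGACGTCA.
Tbp: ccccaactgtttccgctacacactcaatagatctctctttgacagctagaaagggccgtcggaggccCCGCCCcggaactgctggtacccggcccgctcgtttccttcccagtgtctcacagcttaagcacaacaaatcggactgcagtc
Nono: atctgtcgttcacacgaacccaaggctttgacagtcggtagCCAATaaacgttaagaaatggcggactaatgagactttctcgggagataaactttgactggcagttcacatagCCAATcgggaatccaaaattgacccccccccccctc
Rpl13a: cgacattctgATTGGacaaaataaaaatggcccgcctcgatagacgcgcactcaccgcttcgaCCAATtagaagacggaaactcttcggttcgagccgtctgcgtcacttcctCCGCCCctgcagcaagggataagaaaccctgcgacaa
Ppia: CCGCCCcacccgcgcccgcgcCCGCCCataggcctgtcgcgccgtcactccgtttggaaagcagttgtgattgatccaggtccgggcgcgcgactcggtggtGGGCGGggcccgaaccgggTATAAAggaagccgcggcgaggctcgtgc

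Of the 4 promoters, that of Ppia held TATAAA, 29 to 24 bases before the start. Over 250 bases, Ppia held 4 GC boxes, Rpl13a 2 and Tbp 1, while Nono and Rpl13a held 2 CCAAT boxes each. No match to TGACGTCA was found in the 4 windows. Only this full form was searched, so shorter forms of the element, such as its part CGTCA, were not counted. Among 32851 mouse promoters of the same length, 12.4% held the TATA box, 33.8% the CCAAT box, 32.7% the GC box and 1.55% the cAMP response element, counting both strands. The motifs searched share no bases with one another in these windows. A match is a description of letters and does not show a bound site. The 250 bases of Ppia were 72.4% G or C, against 58.8% for Rpl13a, 53.2% for Nono, 52.0% for Tbp and a median of 52.4% over all promoters.

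The first question was how bright the 5 genes were in these cells. Ppia was the brightest on every array, followed by Hsp90ab1, Rpl13a, Nono and Tbp, and all 6 arrays had this order. Intensity is in the scanner's arbitrary units after background subtraction, without scaling between arrays. Over the 6 arrays Ppia averaged 276426 ± 8490 (SD, n = 6), Hsp90ab1 95567 ± 14990 and Rpl13a 31546 ± 2233. Nono averaged 15492 ± 2931 and Tbp 4180.1 ± 787 (SD, n = 6). Each neighbour in this order was separated by far more than the spread: the ratio of Ppia to Hsp90ab1 lay between 2.28 and 3.30 on single arrays, that of Hsp90ab1 to Rpl13a between 2.78 and 3.44, that of Rpl13a to Nono between 1.70 and 2.30, and that of Nono to Tbp between 3.57 and 3.81. Probes differ in how strongly they bind, so the order is one of brightness and not of transcript number.

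Within an array all 5 genes were among the brighter probes. Tbp was brighter than 89.4% to 91.3% of the 60915 probes, Nono than 94.8% to 96.0%, Rpl13a than 96.9% to 97.4%, and Hsp90ab1 than 98.9% to 99.4%. Only 7 to 18 probes of an array outshone Ppia, the cyclophilin. Its brightest spot nevertheless reached 39.3% of the scanner's saturation value, so the scanner did not clip these genes. A levelling off of binding at the brightest probes was not tested. Mouse genomes hold many processed copies of genes such as Ppia and Rpl13a. Whether their RNA adds to these spots was not tested.

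The 20 spots of a gene gave a measure of technical error. Within an array their coefficient of variation was 0.920% to 4.79% over the 5 genes, and the widest was that of Tbp, the dimmest gene. The standard error of a gene's mean over its spots was 0.0031 to 0.016 on the log2 scale. For each gene and group the SD between arrays, given below, was larger than the standard error on each of that group's arrays. The margin was smallest for Rpl13a in control cells, with an SD of 0.0087 against standard errors of 0.0038 to 0.0058. The software had marked 30 of the 600 spots as outliers, 5.00%, and 23 of these were dimmer than the gene's median spot on that array.

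**Figure D1:**
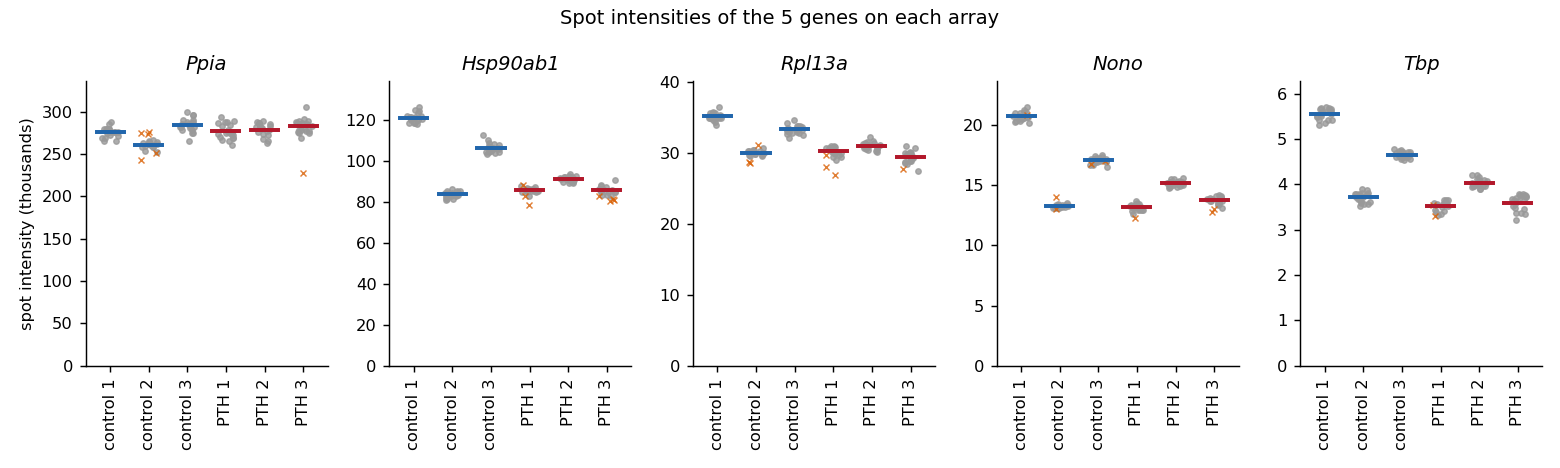
Intensity of each spot (grey circles, arbitrary units in the multiples given on each axis; orange crosses are spots marked as outliers and left out) of Ppia, Hsp90ab1, Rpl13a, Nono and Tbp on the 3 control and 3 PTH arrays. Bars give the array's mean on the log2 scale (blue control, red PTH). Spots of an array lie close together, while control replicate 1 stands above the other arrays for Hsp90ab1, Nono and Tbp.

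The second question was whether intermittent PTH changed these genes. Values were compared after each array was centred on its 75th percentile on the log2 scale (centred log2 intensity), with limma across all 37011 tested probes. None of the 5 genes passed at a Benjamini-Hochberg adjusted p under 0.05, where 2 of the 37011 tested probes, 0.0054%, did. At an unadjusted p under 0.05 the count was also 0 of the 5, against 15.1% of all tested probes. The median difference of the 5 genes was -0.13 on the log2 scale, with 4 lower and 1 higher in PTH, beside a median of 0.01 over all tested probes. For none of the 5 did the PTH arrays lie wholly above or below the control arrays, which happened for 21.3% of the tested probes measured on all arrays. On the intensities as deposited the groups also overlapped for all 5 genes, and 16.7% of those probes had groups that did not. In RNA of a whole culture, fewer cells that express a gene and less of its RNA per cell cannot be told apart.

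Among the genes of transcription, Tbp had the largest difference of the 5. Its intensity was 5549, 3715 and 4655 on control replicates 1, 2 and 3, and 3529, 4035 and 3598 on PTH replicates 1, 2 and 3. The group means were 4639.6 ± 917 in control and 3721 ± 275 in PTH cells (SD, n = 3 each). On the centred log2 scale the controls were at 3.24, 2.88 and 3.08 and the PTH arrays at 2.86, 2.90 and 2.83. Control replicates 1 and 3 lay above all PTH arrays, whereas control replicate 2 lay among them, so the groups overlapped. The PTH to control ratio was 0.867 (95% confidence interval 0.746 to 1.01), which is a log2 difference of -0.21 ± 0.09 (SE) with a limma adjusted p of 0.34.

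Nono, the gene of the paraspeckle protein, had a similar arrangement of arrays. Its intensity was 20674, 13247 and 17024 on control replicates 1, 2 and 3, and 13164, 15129 and 13715 on the PTH replicates. The means were 16982 ± 3714 in control and 14003 ± 1014 in PTH cells (SD, n = 3 each). In centred log2 intensity the controls stood at 5.14, 4.72 and 4.95 and the PTH arrays at 4.76, 4.81 and 4.76. Control replicate 2 was the lowest of the 6 and control replicate 1 the highest. The ratio was 0.894 (95% confidence interval 0.757 to 1.06), with a log2 difference of -0.16 ± 0.10 (SE) and a limma adjusted p of 0.45.

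Rpl13a, the ribosomal protein gene, varied least of the 5 after centring. Its intensity was 35181, 30053 and 33324 on the control arrays and 30261, 31002 and 29455 on the PTH arrays, with means of 32852 ± 2596 and 30239 ± 774 (SD, n = 3 each). Centring brought the controls to 5.91, 5.90 and 5.92, and the PTH arrays to 5.96, 5.84 and 5.86. The SD of the 3 centred control values was 0.0087, against 0.06 in PTH cells. PTH replicate 1 was the highest of the 6 arrays and PTH replicate 2 the lowest. The ratio was 0.986 (95% confidence interval 0.898 to 1.08), with a limma adjusted p of 0.88. The direction of this small difference, -0.02 on the log2 scale, turned to 0.05 with the slide row as a block and to 0.0018 without PTH replicate 2.

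The folding genes went different ways. The HSP90 chaperone gene Hsp90ab1 had intensities of 121078, 83579 and 106228 on the control arrays and 85644, 91194 and 85679 on the PTH arrays. Its means were 103628 ± 18884 and 87506 ± 3194 (SD, n = 3 each). In centred log2 intensity the controls were at 7.69, 7.38 and 7.59 and the PTH arrays at 7.46, 7.40 and 7.40, so control replicate 2 was again the lowest and control replicate 1 the highest. The ratio was 0.913 (95% confidence interval 0.795 to 1.05), a log2 difference of -0.13 ± 0.09 (SE) with a limma adjusted p of 0.46.

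Ppia was the 1 gene of the 5 with a higher mean in PTH cells. Its intensity was 275797, 260451 and 284143 on the control arrays and 276649, 278806 and 282712 on the PTH arrays, with means of 273463 ± 12017 and 279389 ± 3073 (SD, n = 3 each). After centring, the controls were at 8.88, 9.02 and 9.01 and the PTH arrays at 9.15, 9.01 and 9.12. Control replicate 1 was the lowest array and PTH replicate 1 the highest, and PTH replicate 2 lay between control replicates 2 and 3. The ratio was 1.09 (95% confidence interval 0.980 to 1.22), a log2 difference of 0.13 ± 0.07 (SE) with a limma adjusted p of 0.39. With quantile normalization this difference was -0.00018, so its direction is not settled.

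**Figure D2:**
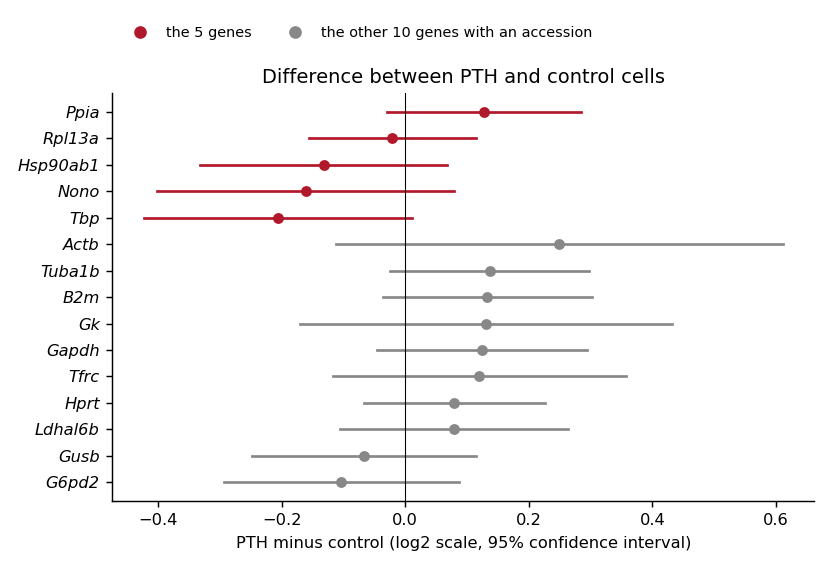
Difference between PTH and control cells (points, log2 scale) with its 95% confidence interval from limma (lines) for the 5 genes (red) and the other 10 genes with a RefSeq transcript (grey). Every interval crosses 0, and the estimates of the 5 genes run from -0.21 for Tbp to 0.13 for Ppia.

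The intervals bound the changes that the arrays could have missed. Across the 5 genes the lowest bound on the PTH level relative to control was 0.746 times, for Tbp, and the highest was 1.22 times, for Ppia. Without scaling between arrays the log2 difference was -0.30 ± 0.14 (SE) for Tbp and 0.03 ± 0.04 (SE) for Ppia, so these bounds depend on the scaling. The other 10 genes with a RefSeq transcript, mostly enzymes and structural proteins, had log2 differences from -0.10 to 0.25, of which 8 were above 0. At the adjusted threshold 0 of these 10 passed in limma, as did 0 at an unadjusted p under 0.05. The 6041 tested probes at least as bright as Tbp had a median difference of 0.09 on the centred log2 scale. Tbp, Nono, Hsp90ab1 and Rpl13a lay below that median and Ppia above it. With quantile normalization the median of the bright probes was -0.04, and Rpl13a at -0.17 and Ppia at -0.00018 kept these sides.

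The spread within groups was not the same for all 5 genes. In control cells the SD of centred log2 intensity was 0.18 for Tbp, 0.21 for Nono and 0.16 for Hsp90ab1, while in PTH cells it was 0.04, 0.03 and 0.04. For Ppia it was 0.08 in control and 0.07 in PTH cells, and for Rpl13a it was smaller in control (0.0087) than in PTH cells (0.06). Whether the spread differed between the groups was not tested. Taken over both groups, the within-group SD was 0.05 for Rpl13a, and 7.08% of the tested probes had a smaller one. For Ppia 24.2% of the probes had a smaller SD, for Hsp90ab1 50.9%, for Tbp 58.3% and for Nono 68.2%. Of the 5 genes, Rpl13a and Ppia thus varied less within groups than the median tested probe, whose SD was 0.12, and the other 3 varied about as much or more. The 6041 probes at least as bright as Tbp had a median SD of 0.09. Rpl13a and Ppia (0.08) lay below it, and Hsp90ab1 (0.12), Tbp (0.13) and Nono (0.15) above it. The 5 genes are means over up to 20 spots, whereas most probes have 1 spot (62939 spots on an array with 60915 probes), so these ranks do not compare like with like. Before centring the order differed: the SD of log2 intensity over the 6 arrays was 0.05 for Ppia and 0.10 for Rpl13a, against 0.21 for Hsp90ab1 and 0.26 for both Nono and Tbp.

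Tbp, Nono and Hsp90ab1 varied together. Over the 6 arrays their centred log2 intensities correlated at r = 0.98 for Tbp with Nono (rho = 0.83), 0.95 for Tbp with Hsp90ab1 (rho = 0.54) and 0.96 for Nono with Hsp90ab1 (rho = 0.83). After centring, Ppia ran against them, with r of -0.86 with Tbp, -0.80 with Nono and -0.66 with Hsp90ab1. Rpl13a followed none of the other 4 closely (r from 0.15 to 0.39). These values describe 6 arrays that share the centring. They rest largely on control replicates 1 and 3: without these 2 arrays r was 0.29, -0.25 and 0.24 for the first 3 pairs. Over these 4 arrays Ppia had an r of -0.79 with Tbp, -0.08 with Nono and 0.78 with Hsp90ab1. Before centring Ppia varied little (SD of log2 intensity 0.05), and its lowest array was control replicate 2. Control replicate 1, its lowest array after centring, had the highest 75th percentile of the 6 arrays (intensity 585). The negative r values of Ppia thus hold for centred values only, and the part of the centring in them was not tested.

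**Figure D3:**
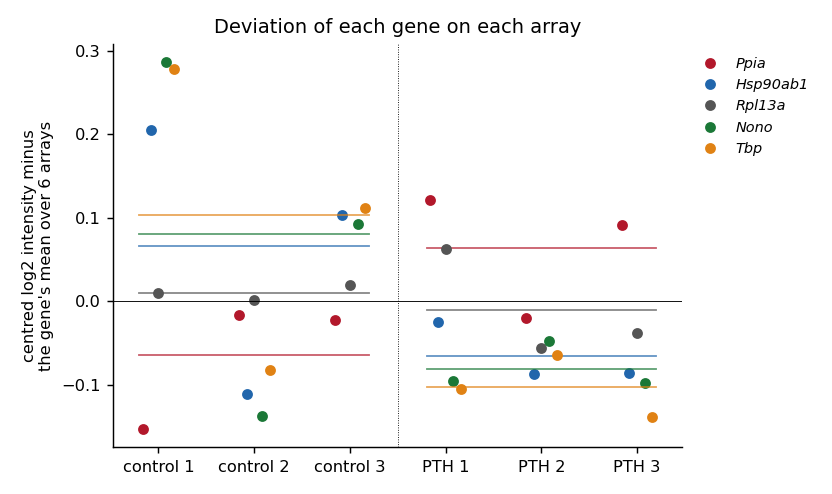
Centred log2 intensity of each gene on each array, minus the gene's mean over the 6 arrays (points), with the mean of each group (lines). Tbp, Nono and Hsp90ab1 are highest on control replicate 1, then on control replicate 3, and lie lower on control replicate 2 and the 3 PTH arrays, while Ppia is lowest on control replicate 1.

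Of the other 10 genes with a RefSeq transcript, G6pd2, a glucose-6-phosphate dehydrogenase gene, was the most like Tbp, Nono and Hsp90ab1, with r of 0.96, 0.98 and 0.90 over the 6 arrays. Ldhal6b, a lactate dehydrogenase-like gene, was the most like Ppia (r = 0.99), and Gk, glycerol kinase, the most like Rpl13a (r = 0.72). Without the 2 arrays farthest from the median, these values were 0.51, 0.89 and -0.22 for G6pd2, 0.99 for Ldhal6b and -0.93 for Gk. The likeness of G6pd2 to Hsp90ab1 and that of Gk to Rpl13a therefore rested on 2 arrays each. Ldhal6b and Gk were far dimmer than Ppia and Rpl13a. The mean intensity of Ldhal6b was 100.0 in control and 98.8 in PTH cells, and that of Gk was 143.5 and 147.7. The likeness of Ldhal6b to Ppia was computed on centred values only, and the part of the shared centring in it was not tested.

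The arrays on which these genes stood high or low were those that differed over the whole array. On the first principal component of all tested probes with no missing spot, control replicates 1 and 3 were at -50.2 and -20.9, control replicate 2 at 8.67, and the PTH arrays at 12.3, 20.7 and 29.5. Control spots on the array named PGK1, with names ending in 3 and 5, differed by 7.02 and 7.33 on the log2 scale on control replicates 1 and 3, by 7.56 on control replicate 2, and by 7.61, 7.50 and 7.59 on PTH replicates 1, 2 and 3. The sources used here do not say what these endings stand for. The part of this signal difference in the values of Tbp, Nono, Hsp90ab1 and Ppia was not tested. By the position code of each array, read here as slide row and column, all control arrays and PTH replicate 1 lay in row 1. The other 2 PTH arrays lay in row 2.

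The outcome for the transcription genes depended on control replicate 2. Without it, Tbp differed by -0.30 on the log2 scale with a limma adjusted p of 0.032, and Nono by -0.27 with an adjusted p of 0.045, so 2 of the 5 genes passed, both lower in PTH. Of all tested probes 15.1% passed in that fit, so that background was far above the 0.0054% with all arrays. Hsp90ab1 differed by -0.22 without that array (limma adjusted p = 0.059). Ppia differed by 0.15 (limma adjusted p = 0.21) and Rpl13a by -0.03. Without control replicate 1, in contrast, Tbp differed by -0.12 and Nono by -0.06, with limma adjusted p of 0.69 and 0.86, and Hsp90ab1 differed by -0.06 and Ppia by 0.08. When limma weighted the arrays by how close they lay to the fitted mean of their own group, Tbp, Nono and Hsp90ab1 passed. These were 3 of the 5, where 32.9% of all tested probes passed. Control replicate 3 then had a weight of 13.6, against 0.31 to 1.47 for the other arrays, so the control mean rested mostly on that array.

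Because a ratio of 2 genes on the same array does not depend on how arrays are scaled to each other, all 10 pairs of the 5 genes were compared as log2 ratios. With 3 arrays against 3 the smallest two-sided exact permutation p is 0.10, so no pair could pass 0.05. The groups did not overlap in 2 of the 10 pairs, against 9.52% of the 105 pairs among the 15 genes. Tbp relative to Nono was the tightest ratio. It was -1.90, -1.83 and -1.87 on the control arrays and -1.90, -1.91 and -1.93 on the PTH arrays, a difference of -0.04 (exact permutation p = 0.10, n = 3 each). Every PTH array lay below every control array, although PTH replicate 1 and control replicate 1 were alike to the second decimal. Rpl13a relative to Ppia was -2.97, -3.12 and -3.09 on the control arrays and -3.19, -3.17 and -3.26 on the PTH arrays, a difference of -0.15, with every PTH array below every control array (exact permutation p = 0.10, n = 3 each).

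The widest difference between groups among the ratios was that of Tbp to Ppia. It was -5.64, -6.13 and -5.93 on the control arrays and -6.29, -6.11 and -6.30 on the PTH arrays, a difference of -0.33, and the groups overlapped through control replicate 2 and PTH replicate 2 (exact permutation p = 0.20, n = 3 each). Relative to Ppia, Nono differed by -0.29 and Hsp90ab1 by -0.26, both with overlapping groups (exact permutation p = 0.20, n = 3 each). Without control replicate 1 these differences were -0.20 for Tbp, -0.14 for Nono and -0.15 for Hsp90ab1. The ratios of Tbp, Nono and Hsp90ab1 to each other differed less between the groups, by -0.04 for Tbp to Nono, -0.07 for Tbp to Hsp90ab1 and -0.03 for Nono to Hsp90ab1. The last had no settled direction, since it was 0.0040 without control replicate 1. A measured ratio therefore depended on the gene used as the denominator: Tbp differed by -0.33 relative to Ppia, by -0.18 relative to Rpl13a and by -0.04 relative to Nono. Leaving out control replicate 1 brought the difference relative to Rpl13a to -0.10, and leaving out control replicate 2 brought that relative to Nono to -0.03.

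**Figure D4:**
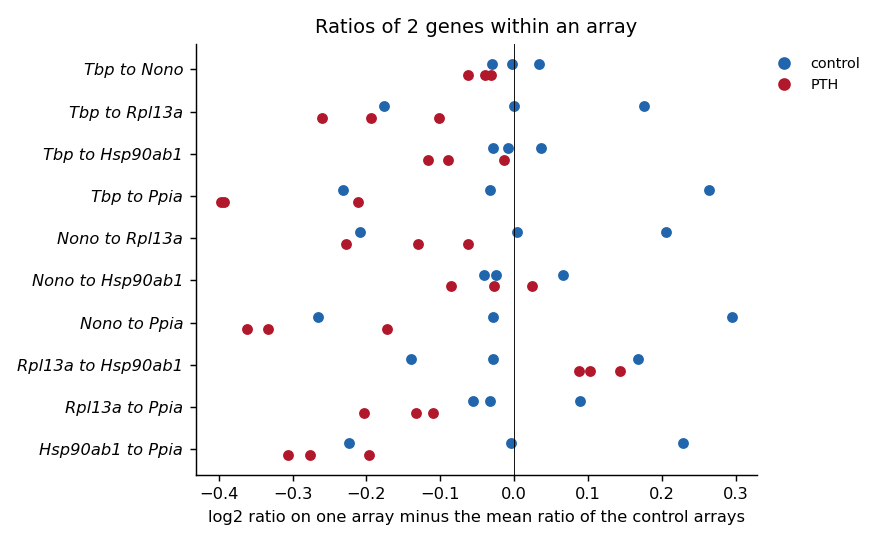
Log2 ratio of 2 genes on 1 array minus the mean of the 3 control arrays, for the 10 pairs of the 5 genes (blue control, red PTH, 1 point per array). The groups do not overlap for Tbp to Nono and for Rpl13a to Ppia, and the ratios to Ppia of Tbp, Nono and Hsp90ab1 spread widest among the controls.

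**Figure D5:**
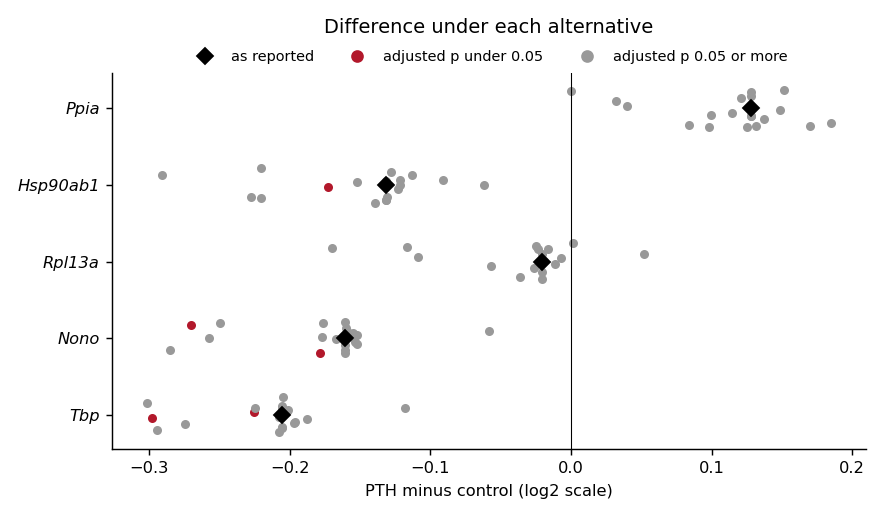
Difference between PTH and control cells on the log2 scale for each gene as reported (black diamond) and under 19 alternatives in processing (circles; red where the limma adjusted p was under 0.05, grey otherwise). Tbp, Nono and Hsp90ab1 stay below 0 in all 19, and Ppia and Rpl13a cross 0. The other filters on dim probes, no trend and the replicate block cannot move a point from the reported difference.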

How the data were processed

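RNA of 3 control and 3 PTH cultures was measured on 6 arrays, and groups were taken from the labels. Per the file headers, all arrays share 1 scan, Feature Extraction 11.0.1.1 (Agilent, 1 colour) read the spots, and the design is annotated on mm9. The deposited intensity of a spot had been corrected for background and for spatial trends, with no scaling from array to array. The headers give the fit of the multiplicative trend a size of 0.0 on control replicate 2 and 0.020 to 0.038 on the other arrays. This correction was therefore not the same on control replicate 2. The normexp alternative, listed below, starts from spot medians without it and also corrects background in another way. There the log2 differences were -0.20 for Tbp, -0.16 for Nono, -0.02 for Rpl13a, -0.13 for Hsp90ab1 and 0.13 for Ppia. The effect of the trend correction alone was not tested. Positions of the probes are not given in the sources used here. Other deposited columns used are 0 or 1 flags for outlier, saturated and well above background spots.

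Control spots, negative spots and outlier spots were left out, and a probe's value was the mean log2 intensity of its remaining spots, computed from the deposited values. After subtracting each array's 75th percentile, limma 3.58.1 (R 4.3.3) compared the groups two-sided, with an intensity trend and Benjamini-Hochberg adjustment over all 37011 tested probes. A probe was tested if most of its spots were well above background on every array of at least 1 group, with at least 2 usable arrays per group. The fit was checked on simulated data. Exact permutation tests of ratios used scipy 1.17.1.

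Symbols came from a RefSeq table by accession, all 15 matching, and promoters from RefSeq, build GRCm38.p6. All 5 genes are named, and beside each the other RefSeq-paired gene with the highest correlation. The genes and lists were chosen with earlier results of these data known. Samples with the same replicate number did not deviate together (r of 0.13, 0.0042 and -0.07), so the numbers were not taken as pairs. Alternatives were quantile, median and no scaling, scaling to the other 10 genes, normexp (offset 50), other filters on dim probes, outlier spots kept, the median over spots, no trend, array weights, the replicate number or slide row as a block, and leaving out each array. The number of arrays limits the precision.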

Additional observations from a re-analysis of the deposited data

How the results depend on the processing

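Tbp, Nono and Hsp90ab1 were lower in PTH in all 19 alternatives, Rpl13a in 17, and Ppia was higher in 18. The other filters on dim probes, no trend and the replicate block left each difference as reported and changed only its error. Their direction was fixed in advance, so these counts overstate how often direction was checked. Leaving out each array in turn gave log2 differences of -0.30 to -0.12 for Tbp, -0.27 to -0.058 for Nono, -0.22 to -0.06 for Hsp90ab1, -0.057 to 0.0018 for Rpl13a and 0.08 to 0.17 for Ppia, and 0 to 2 of the 5 genes past the threshold. Array weights, which gave control replicate 3 a weight of 13.6 and the other arrays 0.31 to 1.47, passed 3 genes: Tbp at -0.23, Nono at -0.18 and Hsp90ab1 at -0.17, in a fit where 32.9% of all tested probes passed. Rpl13a turned to 0.052 with the slide row as a block, where the PTH difference rests on 1 PTH array, and Ppia to -0.00018 with quantile normalization. With the replicate block the log2 difference of Tbp was -0.21 with a limma adjusted p of 0.39, 0 of the 5 genes passed, and 9 of all tested probes did. The count over all tested probes was 5566 without control replicate 2, 12163 with array weights and 16 with the slide row as a block. The causes of these changes were not tested. With normexp the intensity of Ppia in PTH cells was 284433. Of the 10 ratios, 9 kept their direction under the 9 alternatives run on them, and Nono to Hsp90ab1 ran from -0.056 to 0.0040 as each array was left out. No ratio could pass the threshold in this design.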
